A study of Mus musculus with 4 samples.

Results

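The genes described here encode 9 apolipoproteins, the protein parts of the particles that carry lipid in blood, and the microsomal triglyceride transfer protein (Mttp), which loads lipid onto one of them. They are Apoa1, Apoa2, Apoa4, Apoa5, Apob, Apoc1, Apoc2, Apoc3, Apoe and Mttp. The members were taken by symbol, from a list chosen with earlier results of these data known. All 10 were measured, by 11 of the array's 35556 probe sets, and they are 10 of the 18820 genes that carry 1 symbol. Apoa4 had 2 probe sets, which were averaged, and each of the other members had 1.

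The samples were livers of male C57Bl/6J mice, 16 to 17 weeks old, kept for 6 weeks on a semi-synthetic diet with palm oil as its fat. A permanent catheter led into the cecum. After a short morning fast the mice received phosphate-buffered saline (control), sodium [1-13C]acetate, sodium [2-13C]propionate or sodium [2,4-13C2]butyrate through that catheter. Each acid was given as a 0.3 M solution at 0.2 ml/h, which came to 2.4 mmol/h/kg, and livers were taken after 6 h. RNA of 6 control, 6 acetate, 6 propionate and 4 butyrate mice was combined into 1 pool per group and each pool was hybridised to 1 array. A single liver therefore made up 16.7% of the RNA in the larger pools and 25% in the butyrate pool. With 1 array per group there was no spread between replicates, and no difference given here has a test or a replicate check.

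Apolipoproteins are made mainly by hepatocytes and, for several of them, by the absorptive cells of the intestine. In the liver, Mttp transfers triglyceride to newly made apolipoprotein B, and the resulting very-low-density lipoprotein (VLDL) is secreted; high-density lipoprotein (HDL) is built around apolipoproteins A-I and A-II. Small exchangeable apolipoproteins then set how fast lipoprotein lipase removes triglyceride from the particles and how receptors take up the remnants. Short-chain fatty acids reach the liver from the large intestine through the portal vein, where they can serve as building blocks for fatty acids, cholesterol and glucose.

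Values are log2 expression levels, in which a difference of 1 is a doubling, and a log2 ratio is the level in one pool minus that in another. Levels on the arrays ran from 1.60 to 13.7. The median of all genes' mean levels, 5.55, was used as a floor, and 9410 genes lay at or above it. All 10 members lay in the top 10% of gene levels (9.18 and above). Levels of different probe sets are not compared as amounts of RNA, since probes differ in how brightly they bind.

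Several of these genes lie side by side. In the RefSeq gene order, Apoa1, Apoc3, Apoa4 and Apoa5 follow one another on chromosome 9, and Apoc2, Apoc4, Apoc1 and Apoe on chromosome 7. The 3 members whose log2 ratio of acetate to control exceeded 0.1 in size were Apoa4, Apoc2 and Apoa5. Their promoters are shown because these genes had the largest ratios to control. Each line holds the 250 bases before the transcription start, 5′ to 3′ on the gene's strand, from RefSeq (build GRCm38.p6). Capitals mark matches to the motifs searched. The Apoa4 window is chr9:46240594-46240843 (plus strand), that of Apoa5 is chr9:46268358-46268607 (plus strand) and that of Apoc2 is chr7:19677942-19678191 (minus strand).
Apoa4: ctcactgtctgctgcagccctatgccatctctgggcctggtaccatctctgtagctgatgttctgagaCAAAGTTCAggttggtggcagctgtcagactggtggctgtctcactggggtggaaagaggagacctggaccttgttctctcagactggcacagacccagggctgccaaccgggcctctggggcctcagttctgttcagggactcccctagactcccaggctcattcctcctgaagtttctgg
Apoa5: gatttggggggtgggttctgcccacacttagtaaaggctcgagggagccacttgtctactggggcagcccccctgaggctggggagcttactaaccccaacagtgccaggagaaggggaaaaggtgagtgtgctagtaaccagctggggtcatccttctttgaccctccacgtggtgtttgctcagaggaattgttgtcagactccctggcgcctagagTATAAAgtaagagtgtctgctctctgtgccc
Apoc2: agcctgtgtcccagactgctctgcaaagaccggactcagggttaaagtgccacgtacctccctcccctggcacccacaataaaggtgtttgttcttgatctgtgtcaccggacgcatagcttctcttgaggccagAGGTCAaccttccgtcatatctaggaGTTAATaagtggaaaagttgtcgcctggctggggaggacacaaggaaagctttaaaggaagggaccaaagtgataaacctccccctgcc

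The motifs were searched on both strands and did not overlap one another in these windows. The TATA box was searched as TATAAA. The core of sites for the hepatocyte factor HNF4A was searched as CAAAGTNCA. The element of nuclear receptors was AGGTCA, that of the hepatocyte factor HNF1 was GTTAAT, and the CCAAT box was searched by its name. Their letters were chosen with the sequences in view. Of 32851 RefSeq promoter windows of this length, 1.19% held the HNF4A core, 12.4% the TATA box, 14.0% the nuclear receptor element, 6.43% the HNF1 element and 33.8% the CCAAT box. The Apoa4 window held 1 match to the HNF4A core, beginning 182 bases before the start (position -182). In Apoa5 a TATA box began at position -31. RefSeq holds another Apoa5 window, chr9:46268383-46268632, not shown here, in which the TATA box begins at position -56. In Apoc2 the matches were the nuclear receptor element at position -115 and the HNF1 element at position -89. RefSeq promoter windows were at hand for 8 of the 10 members, and 1 of their 12 windows held the HNF4A core. A match is a description of the letters and not a site of binding.

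The message levels of these genes differed little between the pools. None of the 10 members differed from control by 1.5-fold (0.58 on the log2 scale) with any acid, while 1.14%, 1.11% and 1.12% of the 9410 genes did so with acetate, propionate and butyrate. None passed 1.2-fold (0.263) either, against 9.91%, 10.2% and 8.6% of the same genes. In the top 10% of levels, 4.78%, 4.62% and 3.13% of the 1882 genes passed 1.2-fold. With a share this small, a count of 0 among 10 genes is close to the background. The median log2 ratio of the members was -0.0088 with acetate, 0.0072 with propionate and 0.0033 with butyrate, beside -0.0018, -0.0156 and 0.0040 for the top 10% of levels.

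The range over the 4 pools, from the lowest to the highest value of a gene, had a median of 0.062 over the members. It ran from 0.010 for Apoc3 to 0.221 for Apoa4. The same median was 0.184 over the 9410 genes at or above the floor and 0.130 over the 1882 genes in the top 10% of levels. The brightest genes varied least. Over the 144 genes with a mean level of at least 12 the median range was 0.069. Over the 6 members among them (Apoa1, Apoa2, Apob, Apoc1, Apoc3 and Apoe) it was 0.039. Apoa4 was not among them because its level averages a bright and a dim probe set. The brighter one lay between 12.41 and 12.57, with a range of 0.163. The log2 ratios of those 144 genes to control had an SD across genes of 0.057 with acetate, against 0.177 for genes at or above the floor. How much of this narrowing comes from a ceiling of the array signal was not tested.

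**Figure D1:**
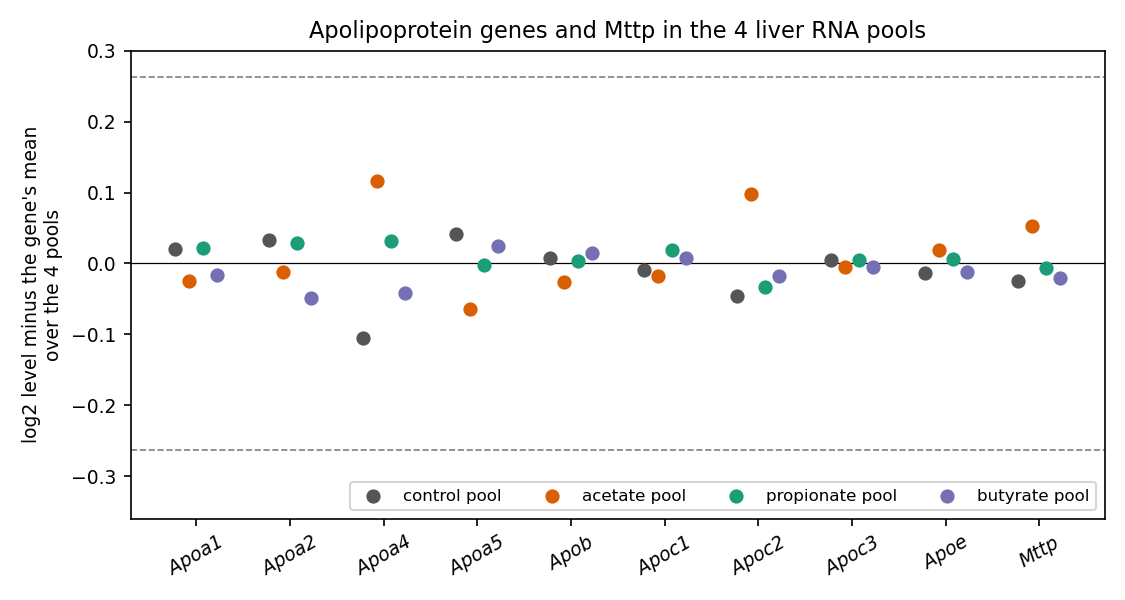
Each point is the log2 level of a gene in one pool minus that gene's mean over the 4 pools (y axis), for the 10 genes (x axis) and the control, acetate, propionate and butyrate pools, with 1 array each and so no error bars; dashed lines mark 1.2-fold (0.263) from the mean. Apoa4 spread the most, with a range of 0.221, and the points of Apoc3 lay within 0.010 of one another.

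The disagreement between probe sets of a gene served as a yardstick. It came from 485 genes measured by exactly 2 probe sets, both at or above the floor. Their 2 log2 ratios of acetate to control differed by a median of 0.068, and by 0.222 or less in 90% of these genes. For propionate these values were 0.076 and 0.258, and for butyrate 0.078 and 0.272. No member's ratio to control exceeded the 90% value in any of the 3 comparisons, though Apoa4 with acetate (0.221) lay just under it. This mark is lenient, since these genes had only to reach the floor and all members lie in the top 10% of levels. There the acetate ratios had an SD across genes of 0.144, against 0.177 at or above the floor. A difference of 2 ratios also carries the error of both. This yardstick does not include variation between mice or differences between arrays that both probe sets share.

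The assembly genes stood nearly level. Apob, the structural protein of VLDL and chylomicrons, was at 12.63 in the control pool, 12.59 with acetate, 12.62 with propionate and 12.64 with butyrate. The 4 values spanned 0.041, and the acetate pool held the lowest. Mttp was at 11.02, 11.10, 11.04 and 11.03 in the same order. The acetate pool was the highest, 1.056-fold above control, and the other 3 lay within 0.02 of one another.

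The messages of both main HDL proteins were slightly lower than control in the acetate and butyrate pools. Apoa1, the chief protein of HDL and the activator of the cholesterol-esterifying enzyme Lcat, was at 13.39 in control, 13.34 with acetate, 13.39 with propionate and 13.35 with butyrate. The acetate and butyrate pools lay below the other 2 by about 0.04. Apoa2, the second protein of HDL, was at 13.16, 13.12, 13.16 and 13.08. Its log2 ratio to control with butyrate, -0.082, was the lowest of any member with that acid and is 0.945-fold. It was larger in size than 63.9% of the ratios in the top 10% of levels.

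Apoa4, a lipid-regulated apolipoprotein of chylomicrons, HDL and VLDL, varied the most of the members. The mean of its 2 probe sets was 10.20 in the control pool, 10.42 with acetate, 10.34 with propionate and 10.26 with butyrate. The control pool was the lowest and the acetate pool the highest, and the 3 ratios, which share the control pool, were 1.166-fold, 1.100-fold and 1.045-fold. In size the acetate ratio exceeded 92.5% of those in the top 10% of levels, the propionate ratio 82.1% and the butyrate ratio 53.4%. The butyrate pool was lower than the average of the other 3, at -0.056 on the log2 scale.

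The 2 Apoa4 probe sets gave the pools in the same order at different brightness. The annotation used here gives neither strand nor position of a probe set, so whether the dimmer one reads Apoa4 message was not tested. The averaged ratios above rest on both, and the brighter one alone gave 0.163, 0.107 and 0.030 with acetate, propionate and butyrate, in place of 0.221, 0.138 and 0.064. One stood at 12.41, 12.57, 12.52 and 12.44 in the control, acetate, propionate and butyrate pools. The other stood at 7.99, 8.27, 8.16 and 8.09. Their acetate ratios were 1.120-fold and 1.214-fold, so the dimmer probe set passed 1.2-fold and the brighter did not. The dimmer probe set stood at 0.169 with propionate and 0.098 with butyrate. The neighbours of Apoa4 did not share its values: with acetate, Apoc3 stood at -0.0094, Apoa1 at -0.044 and Apoa5 at -0.106.

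**Figure D2:**
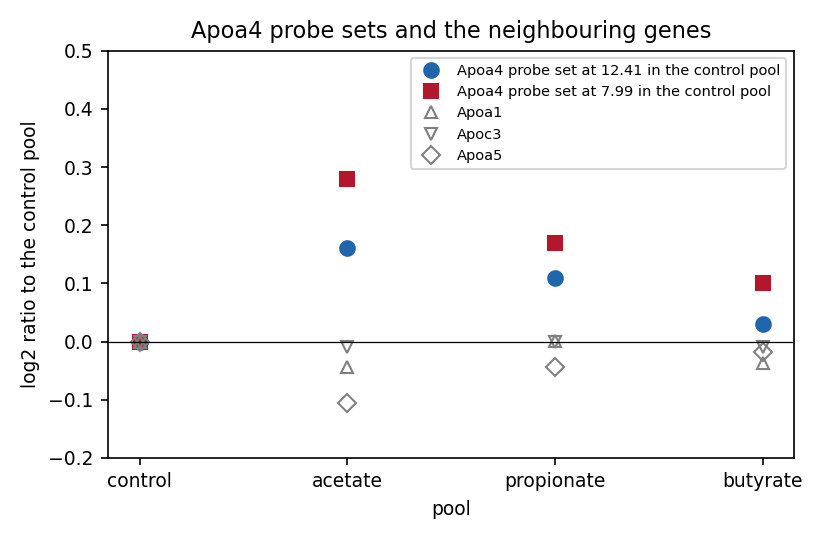
The y axis is the log2 ratio to the control pool and the x axis the pool; filled points are the 2 probe sets of Apoa4, and open points are Apoa1, Apoc3 and Apoa5, the other genes of the same chromosome 9 cluster, with 1 array per pool and no error bars. With acetate the Apoa4 probe sets stood at 0.163 and 0.280, and the other 3 genes at or below 0.

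Apoc2, Apoa5 and Apoc3 act on lipoprotein lipase, the enzyme that takes triglyceride out of circulating particles. Apoc2, its obligatory activator, was at 11.44 in control, 11.59 with acetate, 11.46 with propionate and 11.47 with butyrate. The acetate pool stood 1.105-fold above control, and the other 3 pools spanned about 0.03. Apoa5, which promotes lipase action, went the other way with acetate, at 11.98, 11.87, 11.93 and 11.96. Its acetate value of 0.929-fold was the lowest ratio to control of any member, and it was larger in size than 70.6% of the ratios in the top 10% of levels. Apoc3, which restrains the lipase and the uptake of remnants, was at 12.85, 12.84, 12.85 and 12.84, with a range of 0.010.

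Genes tied to remnant uptake also stood nearly level. Apoe, the ligand through which hepatocyte receptors take up remnants, was at 13.33 in control, 13.37 with acetate, 13.35 with propionate and 13.34 with butyrate. Apoc1, which hinders that uptake, was at 12.93, 12.93, 12.96 and 12.95. The ranges of Apoe and Apoc1 were 0.033 and 0.037. The fourth gene of that cluster, Apoc4, stood at 12.03, 11.97, 12.08 and 11.92.

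**Figure D3:**
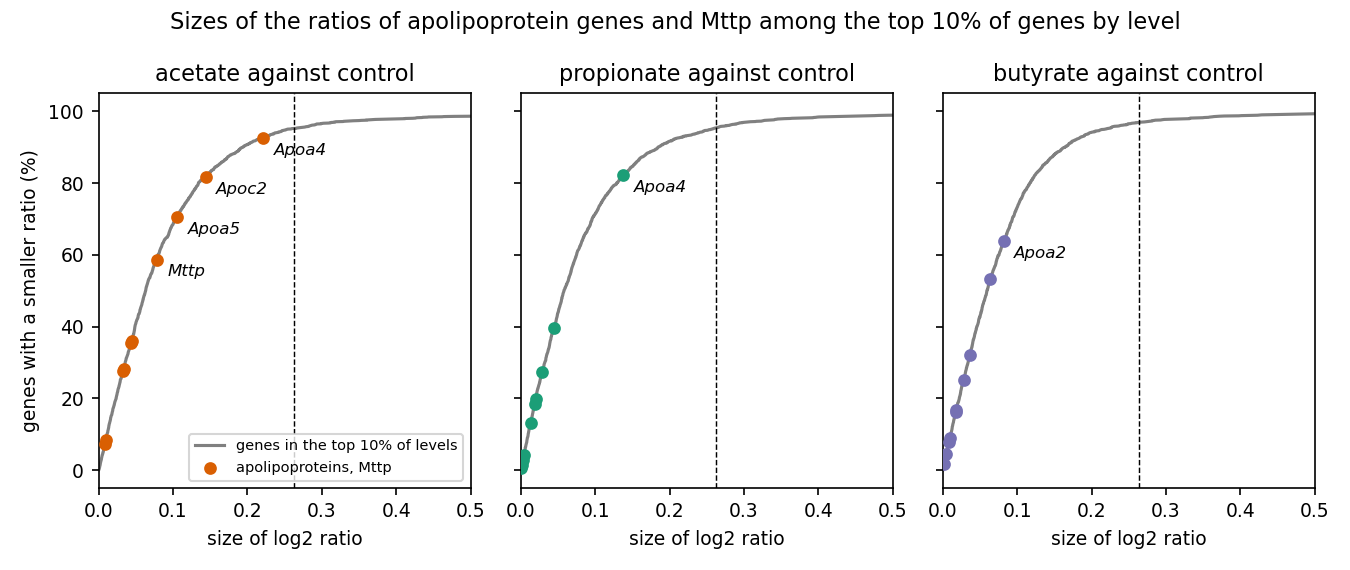
Each panel plots, for one acid against control, the size of the log2 ratio (x axis) against the percentage of genes with a smaller one (y axis). The grey line is the 1882 genes in the top 10% of levels. Points are the 10 members (apolipoprotein genes and Mttp), and the dashed line marks 1.2-fold. With acetate Apoa4 stood above 92.5% of these genes, Apoc2 above 81.7%, Apoa5 above 70.6% and Mttp above 58.7%.

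The acids were given at the same molar rate and time and differ in the length of their carbon chain, so the 3 acid pools were also set against one another. No member differed by 1.2-fold in any of the 3 pairs. The share of the 9410 genes that did was 6.91% for propionate against acetate, 13.5% for butyrate against acetate and 10.7% for butyrate against propionate. In the top 10% of levels, where all members lie, it was 2.34%, 6.16% and 4.78%, so a count of 0 among 10 is close to the background. At 1.5-fold the shares of the 9410 genes were 0.553%, 1.9% and 0.956%. Between propionate and acetate the lowest member was Apoc2 (-0.131) and the highest Apoa5 (0.061). Between butyrate and acetate they were Apoa4 (-0.158) and Apoa5 (0.088), and between butyrate and propionate Apoa2 (-0.077) and Apoa5 (0.027). With 1 pool per acid, no interval can be given for these differences, so they do not show that the acids act alike.

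Of the 60 ratios (10 genes, 6 comparisons), 41 kept their sign under every alternative run and 19 changed sign under another scaling or reference. The largest of those 19 was 0.064 in size. The log2 ratios to control with acetate of Apoa4 (0.221), Apoc2 (0.144), Mttp (0.078) and Apoa5 (-0.106) kept their sign in every alternative run. So did those of Apoa2 with butyrate and of Apoa4 with propionate (0.138). These runs could show little. No member shifted by more than 0.031 with cyclic loess or 0.039 with centring on hepatocyte markers, and the brightest probe set alters only Apoa4. Against the average of the other pools, the ratio of a gene's highest or lowest pool keeps its sign by construction. Of these ratios, only that of Apoa4 with propionate could change there. Every run reused the same arrays, so a kept sign is not a replicate check.

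By a rule set for the gene with the widest range, the genes most like Apoa4 were those with the smallest root mean square difference over the 4 pools after each gene was centred on its mean. They were Pgm2 (0.0048), Ak4 (0.0056), Gin1 (0.0107), Cd93 (0.0107) and Mocs2 (0.0115). Pgm2 had levels of 7.28, 7.51, 7.41 and 7.34 in the control, acetate, propionate and butyrate pools. In all, 462 of 9409 genes lay within 0.05 of Apoa4 by this measure.

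Other proteins carried on lipoproteins were likewise close to control. None of the 11 measured genes of that list passed 1.2-fold with acetate or propionate. With butyrate 1 did, Apod (-0.32), whose level was below the floor. Of all 18820 genes, 12.2%, 13.3% and 11.9% passed 1.2-fold with acetate, propionate and butyrate, so counts this small among 11 are close to the background. The medians of the list were -0.008, 0.016 and 0.009 with acetate, propionate and butyrate. Among genes above the floor, Apon had the largest ratios with acetate (-0.16) and propionate (-0.16), and stood at 0.14 with butyrate. Apom, the HDL protein that carries sphingosine 1-phosphate, stood at -0.11, 0.02 and -0.01. Saa4 was at 0.16 with butyrate, and Saa2 of the same family at 0.06.

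Of 22 genes for VLDL assembly, lipid supply and secretion, 3, 2 and 0 passed 1.2-fold with acetate, propionate and butyrate. Of the 9410 genes, 9.91%, 10.2% and 8.6% did so. Apobec1, the enzyme that edits Apob message into its short form, was at 8.93 in control, 9.24 with acetate, 9.15 with propionate and 9.06 with butyrate. Its acetate ratio was 0.31, one of the 2 in this list above 1.2-fold. The other was Cidec, a lipid droplet protein, at 6.88, 7.64, 6.90 and 6.69, which was the only gene of the list past 1.5-fold with any acid. The chaperone Hspa5 was at -0.27 with acetate and -0.58 with propionate, and the secretory GTPase Sar1a at -0.28 with propionate. P4hb, the partner subunit of Mttp, stood at 0.03, -0.15 and 0.03, and Tm6sf2, which aids VLDL lipidation, at -0.05, -0.02 and 0.04.

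Markers of other tissues that make some of these genes also differed between the pools. All 9 measured markers of pancreatic acini, of 12 listed, lay below control with each acid, by medians of -0.952, -0.662 and -0.334. With acetate, propionate and butyrate, 8, 7 and 0 of them lay at least 1.5-fold lower, against 0.51%, 0.404% and 0.361% of the 9410 genes. The summed linear level of the 9 markers was 10886 in control and 6394, 7186 and 8507 with acetate, propionate and butyrate. The pancreas is rich in chaperones such as Hspa5, which stood at -0.27, -0.58 and -0.17 with acetate, propionate and butyrate. The part of pancreatic cells in these ratios was not tested. Of 8 adipocyte markers 7 were measured, 2 of them at or above the floor, with a summed level of 466, 551, 437 and 381. Their median log2 ratios to control were 0.015, -0.325 and -0.411 with acetate, propionate and butyrate. With acetate 4 of the 7 lay above control and 3 below, and the highest ratio was that of Plin4 (0.55). Adipocytes make Cidec, and their part in its ratios was not tested. Fewer cells of a type and less RNA per cell cannot be told apart in bulk RNA.

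Of 9 lipase and remodelling genes, 2, 1 and 2 passed 1.2-fold with acetate, propionate and butyrate. The shares of the 9410 genes were 9.91%, 10.2% and 8.6%. Angptl8, a feeding-induced inhibitor of lipoprotein lipase, was at 8.50 in control, 8.04 with acetate, 8.23 with propionate and 7.86 with butyrate. The control pool held its highest value, and the butyrate ratio of -0.65 passed 1.5-fold. Lpl, the lipase itself, was at 7.12, 7.56, 7.18 and 6.76, highest with acetate and lowest with butyrate. Lpl is abundant in muscle and fat. All 13 measured skeletal muscle markers, of 13 listed, were below control with butyrate, by a median of -2.04. Of these, 12 lay at least 1.5-fold lower, as did 0.616% of all 18820 genes. In at least 1 of the 2 pools, 12 of the 13 had a level below the floor. The summed linear level of the 13 markers was 1823, 1757, 2077 and 391 in the control, acetate, propionate and butyrate pools. The part of muscle cells in the Lpl values was not tested. Lcat, the enzyme that Apoa1 activates, was within 0.03 of control with each acid.

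Of 11 receptor and clearance genes, 6 had mean levels at or above the floor. With acetate, propionate and butyrate, 1, 2 and 1 of the 11 passed 1.2-fold. The shares of the 9410 genes were 9.91%, 10.2% and 8.6%, and those of all 18820 genes 12.2%, 13.3% and 11.9%. With propionate, 1 of the 2 had a level below the floor. Cd36, a fatty acid and lipoprotein receptor, was at 8.57, 9.15, 9.13 and 8.92, and its ratios of 0.58, 0.56 and 0.35 lay under the 1.5-fold mark. Scarb1, the HDL receptor, stood at -0.21, -0.14 and -0.01, and the remnant receptor Lrp1 at -0.07, -0.07 and 0.01.

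Of 24 transcription factors and coactivators known to act on these genes, 2, 2 and 4 passed 1.2-fold with acetate, propionate and butyrate, and none 1.5-fold. The 1.2-fold shares of the 9410 genes were 9.91%, 10.2% and 8.6%. Ppargc1a, a coactivator of HNF4A and PPARalpha, was at 0.51 with acetate, 0.13 with propionate and 0.22 with butyrate. Ppargc1b stood at -0.28, -0.34 and -0.08. With butyrate the 4 were Srebf1 (-0.32), Rora (-0.32), Nr0b2 (-0.29) and Foxa2 (-0.28). Hnf4a, a main driver of apolipoprotein genes in hepatocytes, was at 12.21, 12.20, 12.20 and 12.05, Creb3l3, which acts on Apoa4, at 10.34, 10.30, 10.35 and 10.39, and Ppara at 10.93, 10.79, 10.84 and 10.90.

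**Figure D4:**
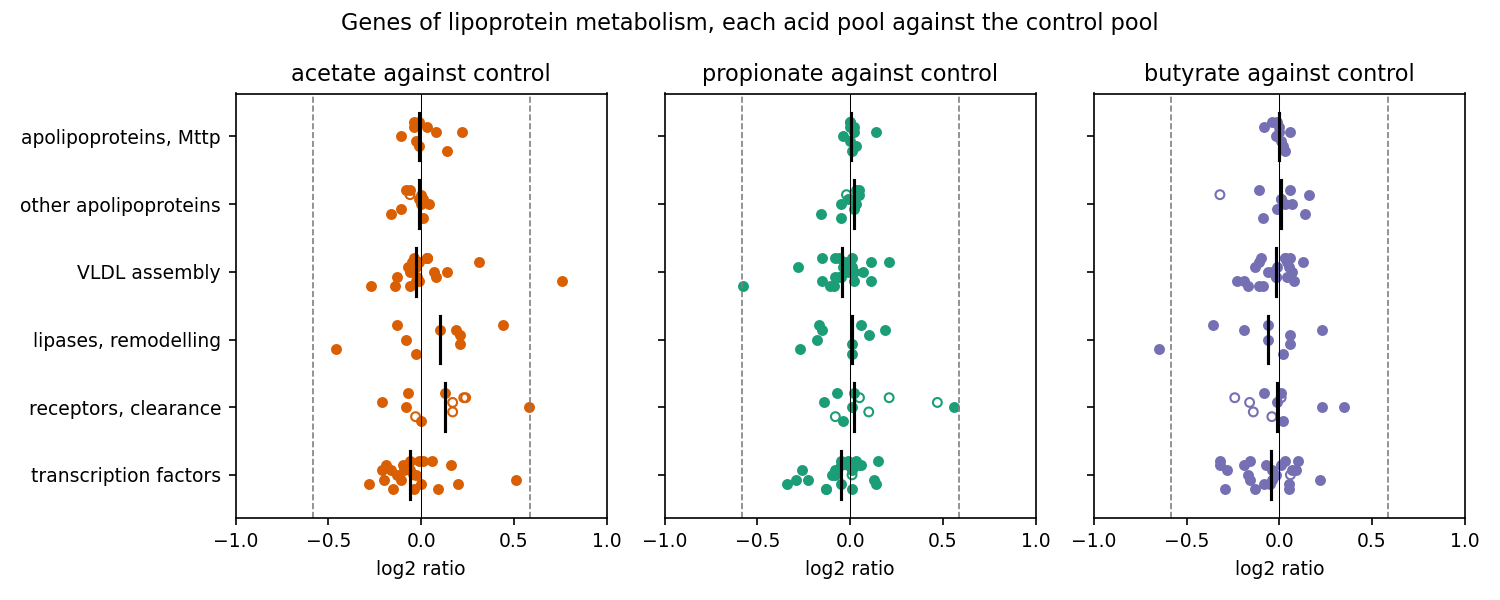
Log2 ratios to control (x axis) of the apolipoproteins and Mttp and of the genes of 5 other lists (y axis) in 3 panels, one per acid; each point is a gene, open points have a mean level below the floor, black bars are list medians and dashed lines mark 1.5-fold. The apolipoproteins and Mttp lay between -0.11 and 0.22 in every panel, and single genes such as Cidec with acetate (0.76) and Angptl8 with butyrate (-0.65) lay beyond the dashed lines.

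Hepatocyte markers were high in all 4 pools, as the liver label says. All 17 measured markers, of 20 listed, lay at 10.53 or above in every pool, with median log2 ratios to control of 0.002, 0.013 and 0.029 with acetate, propionate and butyrate. Their summed linear level was 124140, 124307, 124924 and 126765. Apoh stood in this list and among the other apolipoproteins. Intestinal epithelium also makes Apoa1, Apoa4, Apob and Mttp. Of its 16 measured markers, of 17 listed, 6 had mean levels at or above the floor. With butyrate, 11 lay at least 1.2-fold and 6 at least 1.5-fold above control. Of all 18820 genes, 6.4% and 0.728% did so. The summed level of the 16 markers was 2369, 2466, 2634 and 3548. The goblet cell mucin Muc2 was 2.98 above control on the log2 scale with butyrate. Genes of absorptive cells went different ways. Fabp2, a fatty acid binding protein of these cells, lay above the floor in every pool, at 9.28, 9.60, 9.33 and 9.47. Of those below the floor in both pools, Slc26a3 stood at 1.23 with butyrate, Cdh17 at 0.55, Vil1 at 0.01, Sis at -0.51 and Alpi at -0.88. Of the 13 markers past 1.2-fold in either direction there, 10 had a level below the floor in at least 1 of the 2 pools. In that pool Apoa4 stood at 0.064, Apob at 0.0079, Mttp at 0.0046 and Apoa1 at -0.036 against control, and the part of intestinal cells in these values was not tested.

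Macrophages also make Apoe, Apoc1 and Apoc2. All 14 macrophage markers were above control with butyrate, and 6 of them passed 1.5-fold. Of the 9410 genes, 0.755% lay that far above control. The median of the markers was 0.569. The medians were -0.148 with acetate and 0.299 with propionate, and the summed linear levels 7141, 7209, 8886 and 10299 in the control, acetate, propionate and butyrate pools. With butyrate the log2 ratio of Apoe was 0.0020, that of Apoc1 0.017 and that of Apoc2 0.028. The part of macrophages in these values was not tested.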

How the data were processed

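Liver RNA of 4 pools was measured on 1 array each. The deposited values are log2 expression per probe set; RMA, which makes the arrays' distributions alike, is named in the submitters' processing notes, with its version and settings not given in the sources used here. A shift common to every gene of a pool would therefore be lost. Gene names came from GEO's annotation of the platform (21218 with 1 symbol, 1881 with several, 12457 with none). Of those with 1 symbol, 21185 matched a RefSeq table (GRCm38.p6, names and gene order only). No probe set with several symbols named a member. Probe sets of a symbol were averaged. Each comparison was a log2 ratio of 2 arrays, with 1.5-fold as the main mark and 1.2-fold as an alternative; the number of arrays limits the precision. Ratios and counts were tested on simulated data.

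The members and lists were chosen with earlier results of these data known. Of 181 listed genes 162 were measured. All members are named, with up to 3 genes per list and acid by size of ratio at or above the floor, and the 5 genes most like Apoa4. Apod, Apoh, P4hb, Tm6sf2, Lcat, Hnf4a, Creb3l3, Ppara, Vil1, Cdh17, Slc26a3, Sis and Alpi were named outside that rule, after their values were seen. Alternatives were cyclic loess (limma 3.58.1), centring on hepatocyte markers, the brightest probe set of a gene, another reference and other backgrounds. Python 3.11.15 and pandas 2.3.3 were used.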

Additional observations from a re-analysis of the deposited data

How the results depend on the processing

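No paired analysis was possible because each group holds 1 array. For the same reason no replicate could be left out. Adding probe sets with several symbols could not be run, since none names a member. An alternative value was counted as unmoved where it differed from the main one by less than the SD of log2 ratios across genes in the top 10% of levels (0.111 to 0.153 by comparison). This tolerance is wider than most of the members' ratios, so it says little about their direction. Of 210 alternative values, 54 were identical because the gene has 1 probe set, 1 moved by more than the tolerance, and 29 changed sign, 13 of them with centring on hepatocyte markers, 10 with the other reference and 6 with cyclic loess. The value that moved was Apoa4 with butyrate, 0.064 against control and -0.056 against the average of the other 3; the control pool held the lowest Apoa4 value. The largest shifts were 0.031 with cyclic loess, 0.039 with centring on hepatocyte markers, 0.058 with the brightest probe set and 0.12 with the other reference. The count of members past 1.5-fold was 0 under each of these settings and at 1.2-fold. With its brightest probe set, the level of Apoa4 was 12.41, 12.57, 12.52 and 12.44 in the control, acetate, propionate and butyrate pools. The background share past 1.5-fold among the top 10% of levels was 0.266% for butyrate against control, 0.744% for butyrate against acetate and 0.159% for butyrate against propionate. Among the 144 genes with a mean level of at least 12, a background chosen after seeing the data, it was 0% in all 6 comparisons.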

Other observations

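Among the 144 genes with mean levels of at least 12, the level range of 6 of the members, 3 passed 1.2-fold in any of the 6 comparisons, and none of them was a member. They were singled out after their values were seen. Gstm1, a glutathione transferase, was at 11.92 in the control pool, 12.21 with acetate, 12.10 with propionate and 11.92 with butyrate, 1.22-fold above control with acetate. Car3, a carbonic anhydrase abundant in liver, fat and muscle, was at 12.17, 12.07, 11.99 and 11.91, or 0.83-fold of control with butyrate. Snord104, a small nucleolar RNA, was at 12.49, 12.26, 12.48 and 12.18. Close paralogs of Gstm1 can share its probes, so its value is uncertain as to the member.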
